A study of Mus musculus with 2 samples.

Results

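The 300 largest stitched H3K27ac domains of mouse MLL-AF9 (MA9) leukaemia cells were described in 2 libraries, 1 labelled Gata2 KO (Gata2 -/-) and 1 labelled Gata2 f/f, the notation for a floxed gene. H3K27ac, acetylation of histone H3 at lysine 27, marks active promoters and enhancers, and was mapped by ChIP-seq, which sequences the DNA that an antibody against the mark pulls down. A domain was built by pooling the peaks of both libraries on chromosomes 1 to 19, leaving out each peak that lay wholly within 2000 bp of an end of a protein-coding gene, and joining the remaining peaks across gaps of up to 12000 bp. Of the 19243 domains that resulted, the 300 (1.56%) with the most bases under peaks, as the mean of the KO and the f/f library, are the subject here. The members were thus chosen by the very coverage values that are described below, and nothing is supported with these values. The leukaemia cells of both groups were taken from the bone marrow of primary animals and received Cre or, for the control, MIT by transduction. Both were sorted on GFP and tdTomato and fixed for ChIP after a culture of 7 to 9 days, in which IL-3, IL-6 and SCF were supplied. The labels do not say which of these vectors each library received, so the groups follow the genotype label alone. Both groups carry the MLL-AF9 oncogene and were cultured under the same cytokines. The sources used here give neither the age and number of the animals nor whether a library pools several of them. With 1 library per genotype no difference below has a replicate check or a test: each describes these libraries, and genotype cannot be told apart from library.

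Active regulatory elements often lie in clusters along the chromosome. The largest such clusters, found by joining neighbouring elements and ranking the result, are called super-enhancers when ranked by signal, and they tend to lie at genes that define a cell's identity and, in tumours, at oncogenes. MLL-AF9 is a fusion of a histone methyltransferase with a partner of the transcription elongation machinery that keeps genes such as Hoxa9, Hoxa10, Myb and Cdk6 active in myeloid progenitors. GATA2, a zinc-finger factor of stem and progenitor cells, binds GATA-containing sites in many such elements.

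Some of the domains hold microRNA genes, whose hairpins lie under peaks or in the gaps between them. They are shown because they mark the exact bases that a peak covers or misses. A hairpin is cut into mature strands of which bases 2 to 8, the seed in capitals, choose the target messages. Of 919 hairpins on chromosomes 1 to 19, 35 lay inside 23 of the 300 domains. The mature sequences below, 5′ to 3′, are from RefSeq (GRCm38.p6, the build called mm10) and belong to the domains at Hoxa10, Vmp1, Tspoap1, Zswim4 and Aopep.
miR-196b-5p: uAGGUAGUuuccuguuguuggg
miR-21a-5p: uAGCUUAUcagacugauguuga
miR-142a-3p: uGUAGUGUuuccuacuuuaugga
miR-142a-5p: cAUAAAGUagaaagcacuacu
miR-23a-3p: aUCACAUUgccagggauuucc
miR-27a-3p: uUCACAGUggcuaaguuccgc
miR-24-3p: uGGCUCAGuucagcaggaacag
miR-27b-3p: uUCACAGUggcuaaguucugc

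The hairpin of miR-196b, a microRNA encoded in the Hoxa cluster, lies at chr6:52230081-52230165 on the minus strand and was under peaks of both libraries over its whole length. The same held for the hairpin of miR-142, a microRNA of blood cells, at chr11:87756864-87756927 on the plus strand, and for those of miR-23a, miR-27a and miR-24-2, which follow each other on the plus strand of chromosome 8. The hairpin of miR-21a, at chr11:86584067-86584158 on the minus strand beside Vmp1, lay under no KO base and wholly under an f/f peak, although its domain, ranked 22, was covered over 18.5 kb in KO cells and 18.95 kb in f/f cells. In the other cluster of this family, at Aopep on chromosome 13, the hairpins of miR-23b, miR-27b and miR-24-1 lay between peaks in both libraries. miR-27a-3p and miR-27b-3p share the seed UCACAGU, and miR-24-3p is the same in both clusters. Over all 35 hairpins, 4 had a base under KO peaks alone, 2 under f/f peaks alone, 15 under both and 14 under none, where 10.6% of all 919 hairpins had a base under both lists. The shares under 1 list alone were not counted over all hairpins, so the 4 and 2 have no background. Domains were chosen for covered bases, so a higher share under both is built in. Some hairpins overlap on opposite strands, as those of miR-142 and miR-142b do, and are counted separately.

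Promoters inside the domains that a peak of 1 library covered wholly and the other library's did not are shown for some genes. Those at Atp8b4, Cmtm7, Nbeal2 and S1pr3, among others, also had this pattern and are not shown. Every window shown holds a motif, which is not true of all windows with the pattern. The Atp8b4 window held GAGGAAGT, while those at Cmtm7, Nbeal2 and S1pr3 held none of the motifs counted below. The promoters shown also include that of a gene with a widened domain and a start covered in both. Each is the 250 bases before a RefSeq transcript start, 5′ to 3′ along the gene (GRCm38.p6), with a motif in capitals that a script found: GAGGAAGT, an ETS-family motif bound by PU.1, in Elane and Prtn3, CCGGAAGT, a general ETS motif, in Zfp217, and TTCNNNGAA, a STAT motif, in Gpr146.
Elane chr10:79886062-79886311 (+): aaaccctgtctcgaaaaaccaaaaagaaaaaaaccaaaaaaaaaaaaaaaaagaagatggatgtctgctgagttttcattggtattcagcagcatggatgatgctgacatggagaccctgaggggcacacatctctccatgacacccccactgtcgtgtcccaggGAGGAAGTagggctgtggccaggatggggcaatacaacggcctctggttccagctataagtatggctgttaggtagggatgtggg
Prtn3 chr10:79879417-79879666 (+): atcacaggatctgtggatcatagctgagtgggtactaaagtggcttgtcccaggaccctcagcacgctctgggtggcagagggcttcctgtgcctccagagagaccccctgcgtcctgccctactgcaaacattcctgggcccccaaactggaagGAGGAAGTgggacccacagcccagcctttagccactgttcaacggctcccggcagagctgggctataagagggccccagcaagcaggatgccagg
Zfp217, distal start, chr2:170142676-170142925 (-): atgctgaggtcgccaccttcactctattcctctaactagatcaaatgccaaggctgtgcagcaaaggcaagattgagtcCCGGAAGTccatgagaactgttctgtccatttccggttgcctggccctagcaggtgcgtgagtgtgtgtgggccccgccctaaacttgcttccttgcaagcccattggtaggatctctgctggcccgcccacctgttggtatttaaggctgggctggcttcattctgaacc
Gpr146, downstream start, chr5:139380389-139380638 (+): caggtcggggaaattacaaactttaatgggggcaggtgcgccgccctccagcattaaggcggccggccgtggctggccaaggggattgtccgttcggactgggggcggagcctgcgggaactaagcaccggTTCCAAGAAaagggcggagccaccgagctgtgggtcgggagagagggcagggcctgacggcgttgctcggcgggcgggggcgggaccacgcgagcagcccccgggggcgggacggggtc

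The Elane window lay under no KO base and wholly under an f/f peak, counting all peaks. The Prtn3 window was covered over 37.2% of its bases in KO and wholly in f/f cells. The distal Zfp217 window had the opposite pattern, wholly under a KO peak and under no f/f base, and the Gpr146 window was covered throughout in both libraries. Across all 205 such windows that lay inside a domain and wholly under a retained peak of either library, GAGGAAGT on either strand occurred in 7 (3.41%), against 2.89% of the 8584 windows under any peak and 2.26% of all 20085 windows. CCGGAAGT occurred in 2.93% of the domain windows, against 7.40% of windows under any peak and 3.88% of all windows. The GATA motif AGATAA occurred in 10 (4.88%), against 4.26% of windows under any peak and 8.72% of all windows. TGTGGT, a RUNX motif, occurred in 10.2% of domain windows, 10.2% of windows under any peak and 12.2% of all windows. The same shares were 11.2%, 6.87% and 9.19% for TTGCNNAA, a C/EBP motif, and 6.83%, 5.59% and 6.66% for TTCNNNGAA. Motifs were searched on both strands, no occurrence counts as both GAGGAAGT and CCGGAAGT, and the PU.1, C/EBP and STAT motifs were added after the promoters had been chosen. A match says only that these letters stand in the window.

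Of 37302 KO and 34313 f/f peaks, chromosomes 1 to 19 held 36553 and 33556, and the read depth behind them is unknown. The gene-end rule kept 27535 KO and 24614 f/f peaks. KO peaks covered 1.43 kb and f/f peaks 4.49 kb of the 13.1 kb Gata2 gene, whose domain ranked 836 with 3.50 kb in KO cells and 8.10 kb in f/f cells and so is not among the 300; peaks do not measure the deletion itself. Of 10 myeloid leukaemia markers, 7 in KO and 10 in f/f cells had a peak within 1 kb of a gene end. The same count was 3 and 3 of 14 for mast cell and basophil, 4 and 4 of 12 for erythroid, 7 and 6 of 14 for megakaryocyte, 3 and 6 of 13 for B cell, 4 and 3 of 18 for T and NK cell, 1 and 1 of 16 for stromal and endothelial genes and 5 and 4 of 21 for genes of other organs, and their part in the differences below was not tested. No share of all protein-coding genes with such a peak is given here. These marker counts therefore have no background and are not read as gain or loss of a cell type.

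The 300 domains spanned 10.5 to 142 kb (median 51.6 kb) and had a median of 7 KO and 6 f/f peaks each. KO peaks covered 5.26 to 33.6 kb of a domain (median 11.8 kb) and f/f peaks 3.79 to 36.1 kb (median 10.7 kb). Together the domains were covered over 3.85 Mb in KO and 3.56 Mb in f/f cells, which is 10.9% of all retained KO bases and 10.7% of all retained f/f bases. The mean of both lists decided membership. The last domains inside were those at Pwwp2b, Gnai2 and Wdfy2, with means of 8.719, 8.715 and 8.714 kb, and the first outside those at Id2, Ankrd13a and Tbc1d2, with 8.71, 8.7065 and 8.662 kb. Rank 300 is therefore a line drawn through a continuous series and no gap in size. Of the 300, 255 were among the first 300 by KO bases alone and 252 by f/f bases alone. These single-list rankings shared 207 domains (69.0% of each).

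KO minus f/f covered bases ran from -13.1 to 17.0 kb, with a median of 0.929 kb and quartiles of -1.18 and 3.03 kb. KO covered more bases than f/f in 179 domains (59.7%) and fewer in 121 (40.3%), where over all 19243 domains the shares were 53.7% and 46.2%, over the next 300 in rank 58.3% and 41.7%, and over the 5197 domains covered at least 2000 bp on average 56.5% and 43.4%. The summed KO to f/f ratio was 1.08, against 1.06 in the next 300 and 1.07 over all domains. KO exceeded f/f at least 1.5-fold in 37 domains (12.3%), and f/f exceeded KO in 12 (4.0%). Over the next 300 these shares were 12.3% and 7.0%, and over all domains, many of which hold a single small peak, 30.4% and 23.0%. After division by the ratio over all domains the 1.5-fold counts were 23 and 19. The summed ratio and the share wider in KO were thus close to those of the next 300 domains.

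**Figure D1:**
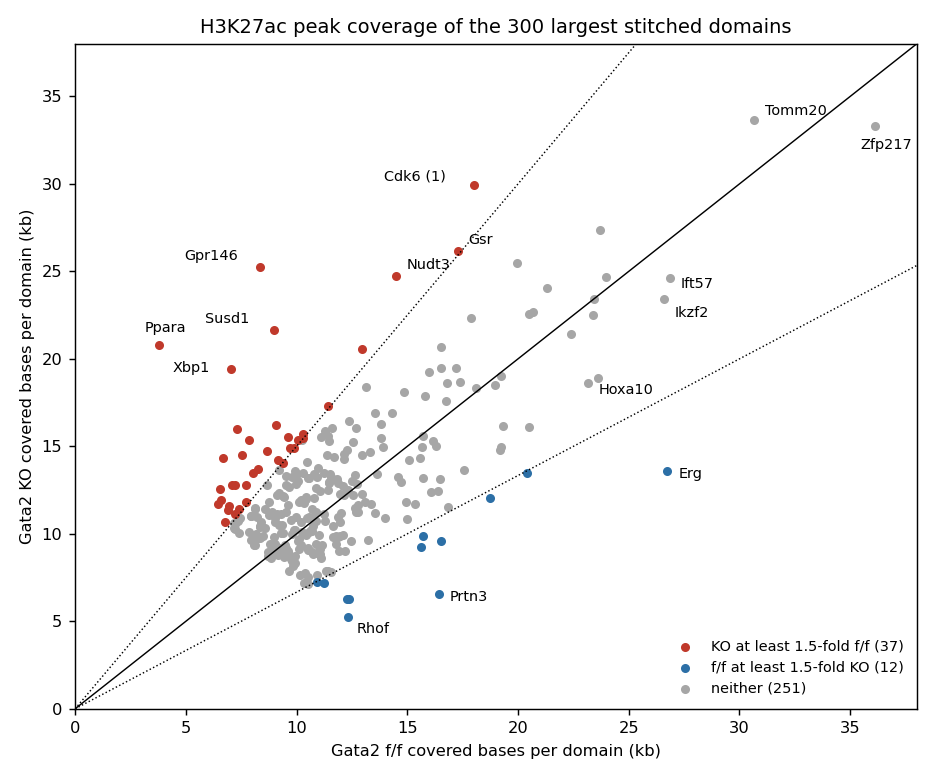
Bases under retained H3K27ac peaks in Gata2 KO cells (vertical axis, kb) against Gata2 f/f cells (horizontal axis, kb), 1 point per domain for the 300 largest domains. The solid line marks equal coverage and the dotted lines 1.5-fold; 37 domains lie past the line on the KO side, furthest the domain near Ppara with 20.8 against 3.79 kb, and 12 on the f/f side, among them Erg with 13.6 against 26.7 kb.

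The domains at the top of the ranking were large in both libraries. That at Zfp217, which encodes a zinc-finger repressor, spanned 142 kb and was covered over 33.3 kb in KO cells, by 21 peaks, and 36.1 kb in f/f cells, by 18 peaks. It ranked 2nd by KO and 1st by f/f bases. The domain ranked next overlaps no gene: it lies 43.0 kb from Tomm20, a mitochondrial import receptor gene, and 161 kb from Irf2bp2, a co-repressor gene of interferon regulatory factors, and was covered over 33.6 kb in KO cells and 30.6 kb in f/f cells. Irf2bp2 itself had a domain of its own, ranked 19, with 22.3 kb in KO cells and 17.9 kb in f/f cells. The domain at Ift57, an intraflagellar transport gene, lies 32.1 kb from Cd47, whose product keeps macrophages from engulfing the cell. Its 7 KO and 7 f/f peaks paired with each other without exception and covered 24.6 and 26.9 kb. At Cyrib and Asap1, regulators of RAC and ARF GTPases, the values were 27.4 kb in KO cells and 23.7 kb in f/f cells.

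Transcription factor and kinase genes followed. Ikzf2, which encodes Helios of the Ikaros family, had 23.4 kb in KO cells and 26.6 kb in f/f cells. Runx2, a RUNX factor gene, had 24.7 and 23.98 kb, and the larger Etv6 domain, in the gene of an ETS-family repressor, 22.5 and 23.4 kb. These differences were small beside the coverage itself. The first Cdk6 domain, at the gene of a cyclin D partner of the G1 phase, stood apart with 29.9 kb in KO cells and 18.01 kb in f/f cells, so that it ranked 3rd by KO and 26th by f/f bases. The domain at Cish, whose product is a STAT5-induced feedback inhibitor, had the smallest difference of the 300, with 23.423 kb in KO cells and 23.441 kb in f/f cells. Cmip had 25.5 kb in KO cells and 20.0 kb in f/f cells, Atp8b4, a lipid flippase gene, 24.1 and 21.3 kb, and Cmtm7, a MARVEL-domain gene, 21.5 and 22.4 kb. After Cish, the domains at Wdfy2, Emilin2, Fndc3b and Myb differed least: the widest of these 4 differences was -0.085 kb, at Myb (8.76 kb in KO cells and 8.84 kb in f/f cells). These small differences hold for retained peaks. With only peaks of at least 3-fold enrichment, the difference was -9.28 kb at Cish, -3.065 kb at Wdfy2 and -1.885 kb at Emilin2. It was then -2.85 kb at Fndc3b and 0 kb at Myb, where -log10 q of at least 5 gave 0.967 kb.

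Of the haematopoietic transcription factor list, 18 of 54 genes (33.3%) lay at domains, against 433 of all 20665 protein-coding genes (2.10%). The list was drawn up with results of these cells known, so this is a count and no test. Their 20 domains were covered more in KO than in f/f cells in 8 cases and less in 12, with a median difference of -0.657 kb, where the median over all 300 was 0.929 kb. KO coverage was higher at Irf2bp2, at the pair of domains around Cebpb, a C/EBP factor gene, at Lmo2, an adaptor of the TAL1 complex, at Cebpa and at Gfi1, a repressor gene. Cebpa, which drives granulocyte and monocyte fate, had 15.4 kb in KO cells and 10.3 kb in f/f cells, and with all peaks counted 15.4 and 13.3 kb. Rara, the retinoic acid receptor gene, had 11.7 and 6.44 kb, the only domain of the list at least 1.5-fold wider in KO, but with all peaks counted 11.7 and 9.21 kb, under 1.5-fold. Coverage differed little at Fli1, another ETS gene, with 19.01 kb in KO cells and 19.2 kb in f/f cells, and at Mef2c, with 15.0 and 15.6 kb. It was lower in KO at Ikzf2, Zfp217, Lyl1, Nfe2, Elf1 and Irf1, and at least 1.5-fold lower at Erg and the smaller Etv6 domain. With peaks of -log10 q of at least 5, of at least 3-fold enrichment, equal numbers of peaks, all peaks counted, or scaling to all domains, 6 to 9 of the 20 were higher and 11 to 13 lower in KO.

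Of 34 MLL-fusion targets and partners, 13 (38.2%) lay at 11 domains, of which 4 were higher and 7 lower in KO, with a median of -0.659 kb; with peaks of -log10 q of at least 5 the split turned to 7 higher and 4 lower. Hoxa7, Hoxa9, Hoxa10 and Hoxa11, homeobox genes that maintain self-renewal, share 1 domain with 18.6 kb in KO cells and 23.2 kb in f/f cells. Of the bases of this domain 74.7% lay within 2000 bp of a gene end, so that it is made of wide promoter peaks more than of distal ones. Mllt10, a gene fused to MLL in other leukaemias, had 16.2 kb in KO cells and 19.3 kb in f/f cells, and Arid2, a PBAF remodeller subunit, 14.8 and 19.2 kb. Igf1r, the receptor of insulin-like growth factor, had 14.1 and 10.5 kb. The second Cdk6 domain, 49.98 kb from the first, went the other way from it, with 9.88 kb in KO cells and 11.98 kb in f/f cells.

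Cytokine receptor and signalling genes, those of the pathways through which IL-3, IL-6 and SCF act among them, lay at domains in 15 of 59 cases (25.4%). Their 14 domains were higher in KO in 8 and lower in 6 cases, with a median of 1.27 kb, which was 0.3525 kb when all peaks were counted and -0.213 kb with peaks of -log10 q of at least 5. Syk, a kinase gene of immune receptors, had 18.4 kb in KO cells and 13.1 kb in f/f cells, and Il21r and Il4ra, interleukin receptor genes that share 1 domain, 13.3 and 9.55 kb. Il17ra, an interleukin-17 receptor gene, had 12.8 and 7.06 kb, a 1.81-fold difference. Ifngr1, the interferon-γ receptor gene, had 15.0 and 13.9 kb. With retained peaks, feedback genes did not share a direction. Socs3 had 13.0 kb in KO cells and 11.5 kb in f/f cells, and Dusp6, an ERK phosphatase gene, 10.7 and 11.97 kb. The Socs3 promoter lay under a retained peak in KO cells, but in f/f cells only under peaks that the gene-end rule left out.

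The remaining lists touched few domains. Of 29 adhesion and migration genes, 4 lay at domains: Dock8 had 18.7 kb in KO cells and 17.4 kb in f/f cells, Rac2 12.8 and 8.66 kb, Lcp1 10.7 and 11.3 kb, and Actb 12.1 and 18.7 kb. Cell cycle and survival genes were represented by Cdk6 and Mcl1, a BCL2-family survival gene, which had 12.3 kb in KO cells and 11.9 kb in f/f cells. Of 30 immediate early genes, Zfp36l2, Ier3 and Klf13 lay at domains, each with more coverage in KO, by 0.226, 1.42 and 2.03 kb, though only 2 of the 3 after scaling to all domains, 1 with -log10 q of at least 5 and 0 with peaks of at least 3-fold enrichment. Chd7 and Jarid2 stood for 35 chromatin regulators, with 19.5 kb in KO cells and 17.2 kb in f/f cells at Chd7. The domain assigned to Jarid2 overlaps no gene, lies 146 kb from Jarid2 and had 11.2 and 13.5 kb. Thy1 was the only one of 24 stem cell genes, with 14.8 and 12.3 kb, and Emilin2 the only one of 24 monocyte genes. Of 26 ubiquitously expressed genes, Actb and Gpi1 lay at domains, and Gpi1 had 9.75 kb in KO cells and 8.02 kb in f/f cells. None of the 14 mast cell and basophil, 12 erythroid, 14 megakaryocyte, 13 B cell, 18 T and NK cell, 16 stromal and endothelial or 21 other-organ genes did. Only 2.10% of all protein-coding genes lay at domains. Lists this short would often have none, so these are not read as absence of a cell type.

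**Figure D2:**
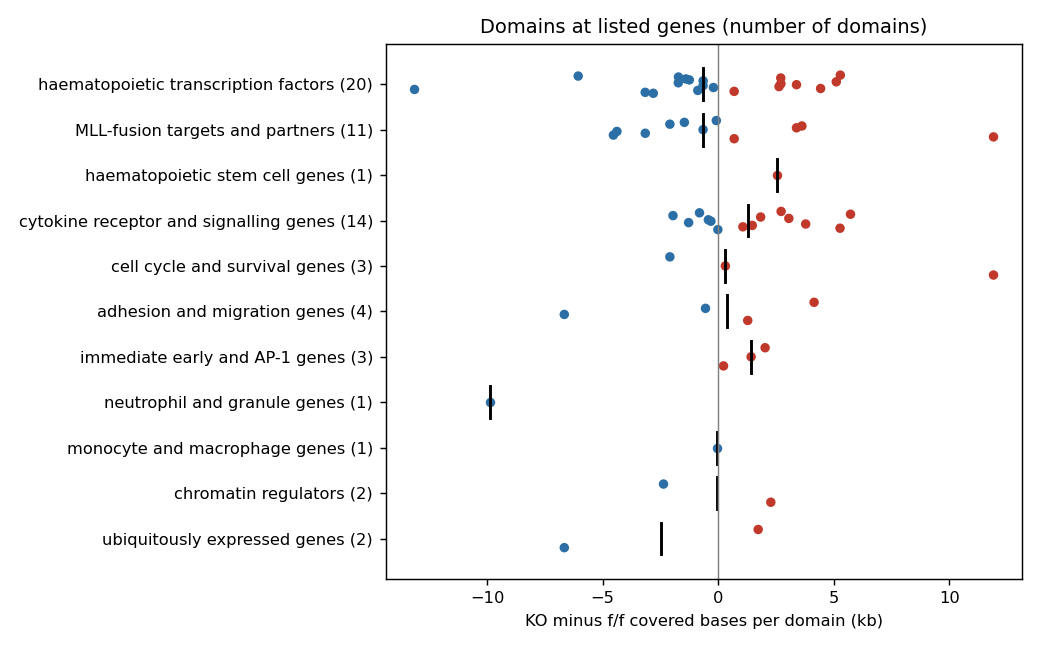
KO minus f/f covered bases (kb, horizontal axis) of the domains at listed genes, 1 point per domain, red where KO is higher and blue where it is lower, with the median as a black bar and the number of domains in brackets. The 20 transcription factor domains run from -13.1 kb at Erg to 5.28 kb at Rara, and the 11 MLL-fusion domains reach 11.9 kb at Cdk6.

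The largest differences toward KO lay at single genes of varied function and in gene-free sequence. The domain near Ppara had the largest difference of all. It lies 49.6 kb from Ppara, a nuclear receptor gene of fatty acid metabolism, and 52.4 kb from Wnt7b, which encodes a WNT ligand, at chr15:85634195-85685305. It was covered over 20.8 kb by 6 KO peaks and over 3.79 kb by 3 f/f peaks, and all f/f bases lay under KO peaks. KO peaks of 6250 and 9041 bp lie over f/f peaks of 1120 and 1560 bp, and another 3 KO peaks met no f/f peak. The wide KO peaks had deposited enrichments of 2.03-fold and 1.64-fold, and the narrow f/f peaks 6.91-fold and 4.50-fold within their own list. All 3 f/f sites were therefore also marked in KO cells, and the difference lay in how far the KO peaks stretched and in the unmatched KO peaks.

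Gpr146, a G-protein-coupled receptor gene, lies in a domain covered over 25.2 kb in KO cells and 8.34 kb in f/f cells, which ranked 7th by KO and 327th by f/f bases. All f/f bases again lay under KO peaks, of which the widest had 7365 bp. When the gene-end peaks that the rule left out were counted as well, f/f coverage was 12.6 kb and KO coverage stayed at 25.2 kb. At Susd1 and Ptbp3, an RNA-binding protein gene, the domain had 21.7 kb in KO cells and 8.97 kb in f/f cells. Xbp1, the transcription factor gene of the unfolded protein response, lies in a domain with 19.4 kb in KO cells and 7.03 kb in f/f cells. A single KO peak of 12557 bp there spans 3 f/f peaks of 873 to 1658 bp. In the first Cdk6 domain 4 of 17 KO peaks and none of 13 f/f peaks lacked a counterpart.

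The other 5 of the 10 widest differences toward KO were of 7.64 to 10.2 kb. At Nudt3 and Hmga1, a chromatin architecture gene, coverage was 24.7 kb in KO cells and 14.5 kb in f/f cells. At Gsr, the glutathione reductase gene, it was 26.2 and 17.3 kb, but with all peaks counted 26.2 and 22.1 kb, which is under 1.5-fold. Reep3 differed in kind: 6 of its 11 KO peaks met no f/f peak, and these carried nearly all of the difference between 16.004 kb in KO cells and 7.33 kb in f/f cells. Cdk17 had 20.6 kb in KO cells and 13.0 kb in f/f cells, and Ppm1h, a phosphatase gene, 14.3 and 6.68 kb, with unmatched KO peaks supplying 4.73 kb net at Cdk17 and 3.82 kb at Ppm1h.

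**Figure D3:**
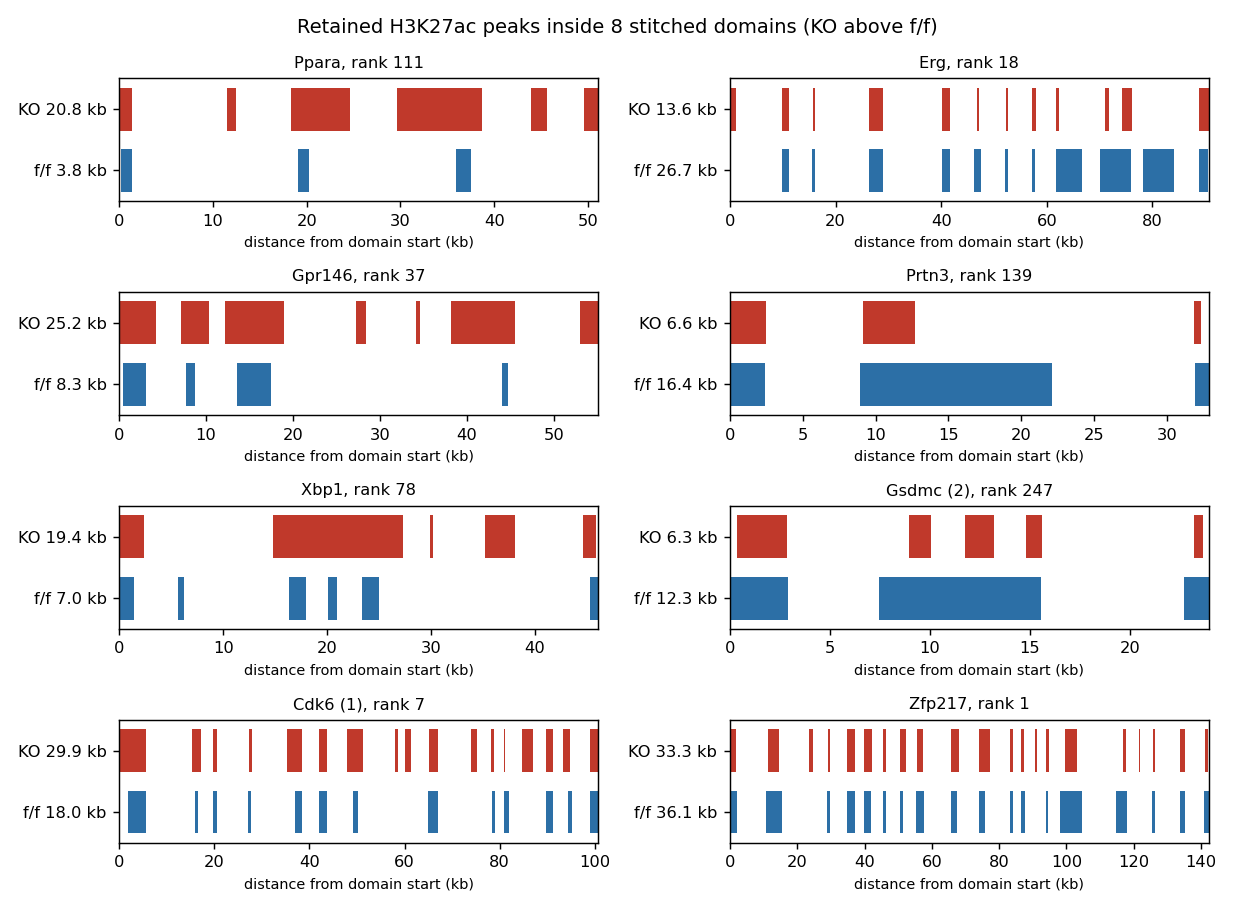
Retained peaks inside 8 domains as blocks along the distance from the domain's start (kb), KO (red) above f/f (blue), with the covered bases beside each row. At Ppara and Gpr146 wide KO blocks each lie over 1 narrower f/f block, and at Xbp1 a single KO block spans 3 f/f blocks, while at Erg, Prtn3 and the second Gsdmc domain f/f blocks are the wider ones.

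The largest difference toward f/f lay at Erg, the gene of an ETS factor of stem cells. Its domain, wholly inside the gene at chr16:95375125-95465806, was covered over 13.6 kb in KO cells and 26.7 kb in f/f cells and ranked 90th by KO and 4th by f/f bases. The difference was not spread evenly. Up to 57.9 kb from its start the peaks of both libraries met each other, apart from a KO peak at the start, and the gap lay between 61.7 and 84.0 kb, where 3 f/f peaks of 4923, 5839 and 5813 bp stood against KO peaks of 604, 750 and 1830 bp. The f/f peak of 5813 bp met no KO peak. The strongest KO peak of the domain, 736 bp wide with a 3.95-fold enrichment, also lay over an f/f peak, of 595 bp. The KO minus f/f difference at Erg depended on the choice of peaks. It was -18.7 kb with -log10 q of at least 5, but -0.064 kb with only peaks of at least 3-fold enrichment.

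The domain of the neutrophil elastase gene Elane and the proteinase 3 gene Prtn3, serine proteases of primary granules, was covered over 6.57 kb in KO cells and 16.4 kb in f/f cells. Its main f/f peak, 13157 bp wide, runs across both promoters shown above, while the KO peak at the same place has 3597 bp. Of the bases of this domain 82.9% lay within 2000 bp of a gene end. The KO list held peaks at the Elane and Prtn3 gene ends that were short enough for the rule to leave out, and with these counted KO coverage was 11.6 kb against 16.4 kb in f/f cells, under 1.5-fold. The KO minus f/f difference was -9.56 kb with -log10 q of at least 5, and 0 kb with only peaks of at least 3-fold enrichment.

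**Figure D4:**
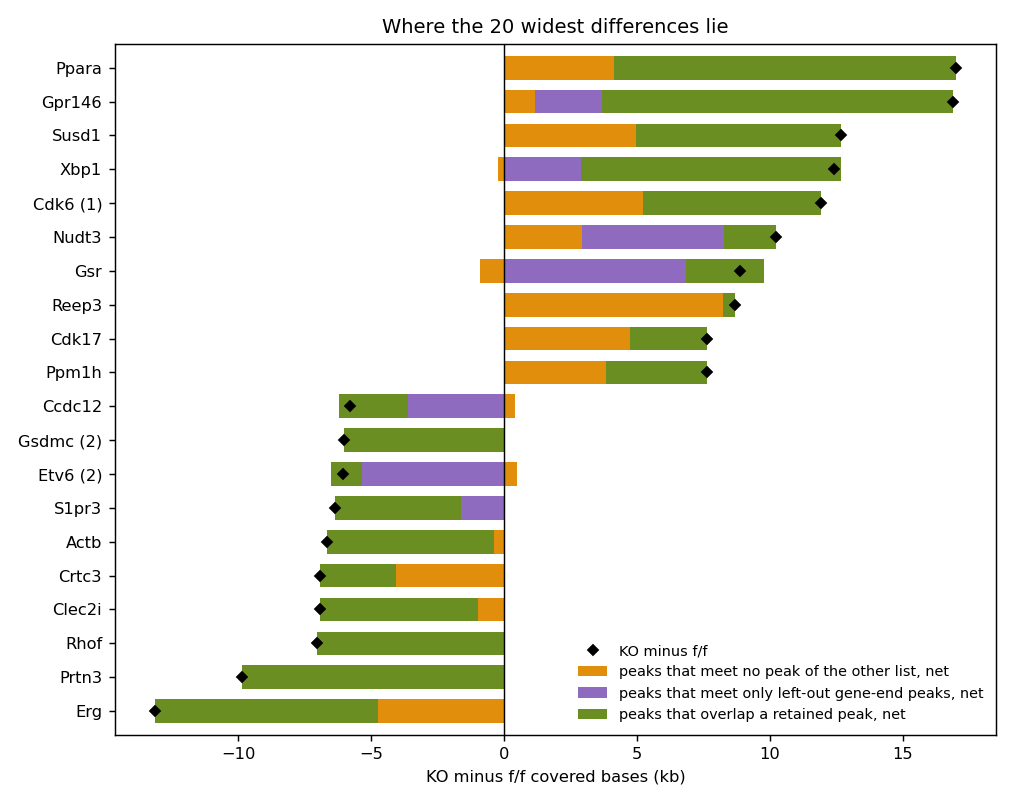
KO minus f/f covered bases (kb, black diamonds) of the 10 domains with the largest and the 10 with the most negative difference, split into the net bases of peaks that meet no peak of the other library (orange) the net bases of retained peaks that meet only gene-end peaks left out by the rule (purple), and the net bases of peaks that overlap a retained peak (green). At Reep3 unmatched peaks make up 8.24 of 8.67 kb, whereas at Prtn3, Rhof and the second Gsdmc domain all net bases are of peaks that overlap a retained peak, and at Gsr 6.85 kb and the smaller Etv6 domain -5.34 kb are of peaks that meet only left-out ones.

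The other 8 of the 10 widest differences toward f/f ran from -7.05 to -5.82 kb. Rhof and its neighbour Setd1b, an H3K4 methyltransferase gene, share a domain with 5.26 kb in KO cells and 12.3 kb in f/f cells. The smaller Etv6 domain had 6.30 and 12.4 kb: an f/f peak of 5344 bp at the Etv6 start had no retained KO counterpart, but a left-out KO peak covered the promoter there, and with all peaks the values were 8.21 and 12.4 kb. At Clec2i, the gene of a C-type lectin ligand of natural killer receptors, coverage was 13.5 kb in KO cells and 20.4 kb in f/f cells. Crtc3, a CREB coactivator gene, had 9.58 and 16.5 kb, and Actb, the β-actin gene, 12.1 and 18.7 kb. At S1pr3, a sphingosine-1-phosphate receptor gene, and at Ccdc12 and Nbeal2, the values were 9.25 and 15.6 kb and 9.90 and 15.7 kb, and with all peaks counted both differences were under 1.5-fold.

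Gene-free domains numbered 32 of 300, at a median of 15.9 kb from the nearest gene and at most 150 kb. These distances pass over genes with serial names, such as Gm or LOC with digits or names ending in Rik, which may lie closer. KO coverage was higher in 19 and lower in 13 of them, with a median difference of 643.5 bp, against 160 higher and 108 lower and a median of 935.5 bp for the 268 domains that overlap a gene. A pair of them lies next to each other on chromosome 15 beyond Gsdmc, 1.70 and 1.61 Mb from Myc, in the stretch that holds the known blood-specific enhancers of that gene. The one nearer to Gsdmc had 11.8 kb in KO cells and 10.4 kb in f/f cells. The other, chr15:63601773-63625725, had 6.27 and 12.3 kb, since an f/f peak of 8106 bp stood over 3 KO peaks of 797 to 1444 bp. Near Myb, the gene of a factor that MLL-AF9 cells depend on, the domain at Ahi1 had 19.5 kb in KO cells and 16.5 kb in f/f cells. That at Myb itself differed by less than 0.1 kb with retained peaks. Of 20 pairs of domains within 100 kb of each other, 12 had differences of the same sign. Pairs of domains further apart were not counted, so this count has no background. With 59.7% of the 300 domains higher and 40.3% lower in KO, many unrelated pairs would also share a sign.

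Both libraries marked most of the same bases. Of all bases under a peak in the 300 domains, 60.5% were under both lists, against 60.9% in the next 300 and 51.0% over all domains. KO peaks alone covered 1056 kb, of which 29.7% belonged to peaks that met no f/f peak, and f/f peaks alone 767 kb, of which 17.7% belonged to peaks that met no KO peak. Another 8.58% of the KO and 6.32% of the f/f single-list bases belonged to peaks whose counterparts had all been left out by the gene-end rule. The rest, 61.7% in KO and 76.0% in f/f cells, belonged to peaks that overlap a retained peak of the other list but reach beyond it. In the domains 15.4% of 2107 KO peaks and 7.62% of 1889 f/f peaks had no counterpart among all peaks of the other list, compared with 27.4% and 19.4% of all retained peaks. These unmatched member peaks were weak and narrow. Their median -log10 p was 4.41 in KO and 4.76 in f/f cells, against 9.79 and 12.5 for all member peaks. Their median width was 740.5 and 729.5 bp, against 1479 and 1477 bp. Of the 37 domains at least 1.5-fold wider in KO, the largest part of the difference lay in peaks that overlap a retained peak in 20, in peaks with no counterpart in 10 and in peaks with left-out counterparts in 7. Of the 12 wider in f/f these counts were 8, 1 and 3.

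The gene-end peaks left out by the rule ran against the domains around them. Of the 37 domains at least 1.5-fold wider in KO, 14 held left-out peaks, and in all 14 these covered fewer bases in KO than in f/f cells (median -1616.5 bp). Of the 12 wider in f/f, 6 held such peaks, and in all 6 they covered more in KO (median 1735.5 bp). In the 45 other domains with left-out peaks 24 had more and 21 had fewer left-out bases in KO. Counted per gene, left-out gene-end bases at the KO-wider domains were at least 1.5-fold higher in KO for 3 of 37 genes (8.11%) and lower for 20 (54.1%), and at the f/f-wider domains higher for 12 of 14 (85.7%) and lower for none (0.0%), against 56 higher and 51 lower (21.9%) of the 233 such genes at all 300 domains, and 11.9% and 11.7% over all 10732 genes with such a peak. By its construction the rule keeps a promoter peak that reaches out of the window in 1 list and leaves out a shorter one at the same promoter in the other. With all peaks counted, 28 domains (9.33%) were at least 1.5-fold wider in KO and 8 (2.67%) in f/f, each of them already so with retained peaks, and the next 300 domains had 28 (9.33%) and 17 (5.67%). With all peaks counted and scaling to all domains, the counts were 14 and 15.

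The widest peaks had lower enrichments but higher -log10 p than all member peaks together. Member peaks over 5 kb numbered 61 in each library, and their median enrichment was 1.86-fold in KO and 2.07-fold in f/f cells, below the 2.49-fold and 2.79-fold of all member peaks. Their median deposited -log10 p was 15.7 in KO and 28.9 in f/f cells, above the 9.79 and 12.5 of all member peaks. None of the 61 KO and 2 of the 61 f/f peaks reached 3-fold. Of these wide peaks 16 KO and 1 f/f lay in domains called wider in KO, and 1 KO and 11 f/f in domains called wider in f/f. A wide peak adds its own bases to the coverage that makes the call, so a split in this direction is built in. With only those peaks counted that reached 3-fold enrichment, which 24.6% of KO and 39.0% of f/f member peaks did, KO bases were more in 67, fewer in 198 and equal in 35 of the 300 domains. When domains were rebuilt and ranked from such peaks, KO was higher in 104 and lower in 196 of the 300 largest, with a summed ratio of 0.814. With such peaks counted in the unchanged domains, those at Ppara, Gpr146, Cdk6, Gsr and Reep3 had fewer bases in KO. The widest differences toward f/f shrank as well, to -0.064 kb at Erg and 0 kb at Prtn3. In 35 domains KO was higher, and in 62 lower, with retained peaks and under each of 4 other choices: all peaks, equal numbers of peaks, -log10 q of at least 5 and at least 3-fold enrichment. The last choice alone gave 67 higher, which caps the first count. Counting all peaks gave 117 lower, which caps the second. The joint count was not made over other domains, so it has no background. The 1.5-fold difference held under all of these for Xbp1, Map4k4 and Il17ra, wider in KO, and for the smaller Etv6 domain, the second Gsdmc domain and Rhof, wider in f/f.

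**Figure D5:**
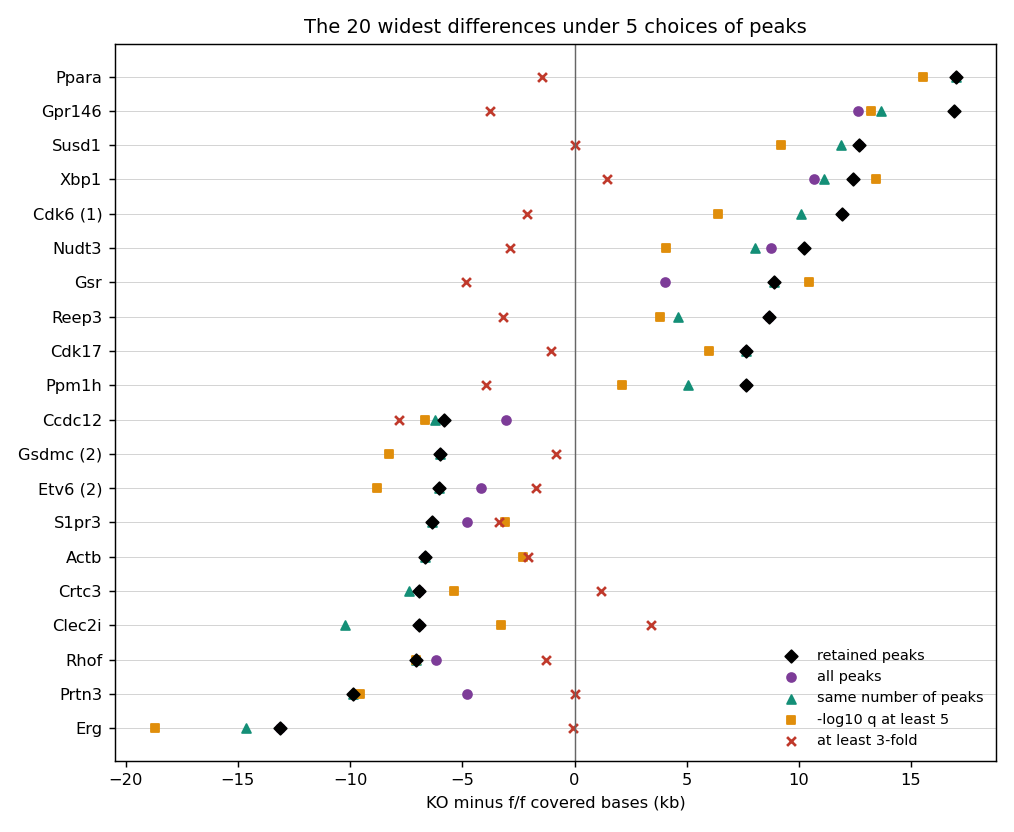
KO minus f/f covered bases (kb) of the 20 domains with the widest differences under 5 choices of peaks: retained peaks, all peaks, equal numbers of peaks per library, peaks of -log10 q of at least 5 and peaks of at least 3-fold enrichment. Under the last choice 8 of the 10 KO-wider domains cross to the f/f side, down to -4.83 kb at Gsr, while Xbp1 stays at 1.44 kb.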

How the data were processed

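Both peak lists were deposited by the authors. Per the submitters' processing notes, BWA, SAMtools and MACS2 were used with mm10; the sources used here give no versions, control or read numbers. For each peak the deposited lists give a score (not used), a fold enrichment (a ratio) and -log10 p and q values, which served only to filter or describe peaks within a list. A list from more reads holds more and wider peaks, so covered bases depend on depth, which is unknown.

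Peaks were filtered, stitched and counted in Python 3.11.15 with pandas 2.3.3, checked on simulated peaks, and bedtools 2.31.1 gave equal bases in all 19243 domains. Genes, promoters and hairpins came from RefSeq tables of GRCm38.p6, without strand for genes, so windows lie at both gene ends. A gene belongs to a domain it overlaps. A gene-free domain was given the nearest gene, passing over genes with serial names such as Gm or LOC with digits or Rik. A domain was called wider at 1.5-fold, and no test was run. The members and lists were chosen with earlier results of these data known. The rule for names took the 12 largest domains, the 10 widest differences each way, the 5 smallest, 3 on each side of rank 300 and up to 6 genes per list. Genes at microRNA hairpins, Map4k4, Ahi1, the first Gsdmc domain, and list genes past the 6 largest were named after their values were seen. Domain sequences were not searched for motifs, since no genome was used here. One list gene is not reported here.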

Additional observations from a re-analysis of the deposited data

How the results depend on the processing

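The 300 domains were rebuilt or recounted under 18 alternatives. The 2 of these that scale to all domains, and the joint count over 4 choices of peaks, were chosen after seeing the data. KO over f/f reversed with peaks of at least 3-fold enrichment (median difference -481.5 bp, summed ratio 0.814, 104 domains higher and 196 lower in KO, 15 wider in KO and 87 in f/f), with ranking by f/f bases (-426 bp, 0.976, 16 wider in KO and 35 in f/f) and, for the ratio, with stitching within 5000 bp (0.998, median 5.5 bp, 33 wider in f/f). Ranking by KO bases gave a median of 2032.5 bp, 78 domains lower, 67 wider in KO and 6 in f/f. With -log10 q of at least 5 the median was 133.5 bp and 32 were wider in f/f; in the unchanged 300 domains KO was higher in 147 and lower in 153. The median was 1470 bp with stitching within 20000 bp and 1460 bp with ranking by span, and 6 domains were wider in f/f with no peak left out. Of 100 domains 58 were higher and 42 lower in KO, and of 1000, 577 and 423, with 73 wider in f/f. Scaled to all domains, 154 were higher and 146 lower in KO, with 23 wider in KO and 19 in f/f, and 14 wider in KO when all peaks were also counted. When only peaks of 3-fold enrichment or more counted, the KO minus f/f difference reversed at Cdk6 (-2.11 kb), Ppara (-1.44), Gpr146 (-3.78), Nudt3 (-2.85), Gsr (-4.83), Reep3 (-3.20), Ppm1h (-3.93), Cdk17 (-1.05), Clec2i (3.40) and Crtc3 (1.20). It shrank to -0.064 kb at Erg and 0 kb at Prtn3, and widened to -9.28 kb at Cish. Ranking by 1 list favours that list by construction; for the other settings the cause was not tested. The listed genes at domains numbered 58, and 54 to 82 under other assignments. Leaving out a replicate could not be run with 1 library per genotype. No paired analysis was possible because each genotype has 1 library. Depth is unknown, so neither counting intervals nor scaling to reads could be given.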
